A study of Mus musculus with 32 samples.

Results

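ATP-binding cassette (ABC) transporters are membrane pumps that spend ATP to move drugs, conjugates, urate, nucleotides or lipids out of cells. In the kidney, the proximal tubule carries many of them on its apical membrane, where they pass compounds into the tubular fluid, and others sit on the basolateral side and return them to the blood. The 8 genes described here are Abcb1a and Abcb1b, the mouse copies of P-glycoprotein, Abcc1, Abcc2, Abcc3 and Abcc4, which encode the multidrug resistance proteins MRP1, MRP2, MRP3 and MRP4, Abcg2, which encodes the breast cancer resistance protein, and Abca1, which moves cholesterol and phospholipid onto apolipoproteins. They were chosen by name out of 54532 genes in the count table, and all 8 passed the filter on low counts in each of the 13 comparisons made. Abcb1b and Abcc3 were picked because their changes stood out in earlier results of these same libraries, so their values are given as a description with no test. The other 6 genes were tested in fits over all genes. The study also placed Abcb1b, Abcc1 and Abca1 in groups of genes selected on these samples, so the directions of these genes are not independent evidence.

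Whole kidneys of C57BL/6 mice, an inbred laboratory strain, were sequenced in 8 groups of 4 mice, males and females being taken untreated (Day 0) or on Day 2, Day 3 or Day 5 of injury by cisplatin. This platinum compound, which damages DNA and harms the proximal tubule, was given as 1 intraperitoneal dose of 20 mg/kg. The mice were 6 to 8 weeks old and carried no transgene or induced mutation, and the study compared the sexes to follow the injury over time. The sample labels give a cisplatin treatment for the Day 0 females and none for the Day 0 males, while the study describes Day 0 mice as healthy, and that description was followed here. Levels are given as CPM, the counts of a gene scaled to library size, for 1 gene across mice and as FPKM, which also divides by gene length, between genes.

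The reads counted on genes per library lay between 16502107 and 35961325. None of the 9 kidney markers checked was at 0 counts in any library. A few libraries stood apart from their group. Female Day 0 mouse 2 had a summed FPKM of hepatocyte markers of 7637, against 152 to 394 in the other females of that day. Without this mouse alone, 0.166%, 0.00577% and 0.182% of all genes were called at female Day 2, Day 3 and Day 5. Beyond such removals of 1 mouse, the part of these markers in the female comparisons, the conjugation enzymes included, was not tested. Mitochondrial transcripts took 23.97% and 19.73% of the counts in mouse 4 of the Day 0 males and females, against 4.49% to 10.7% in the other Day 0 mice. At Day 5 they took 77.9% in female mouse 2 and 78.9%, 79.8% and 79.7% in male mice 2, 3 and 4. Xist, an RNA of the inactive X chromosome, had 4153 counts in the library labelled male Day 5 mouse 1, against its label, and Y-linked genes had 387. The other males had 0 to 260 counts of Xist, with 242 in male Day 0 mouse 4 and 260 in male Day 5 mouse 2, and the females had 0 to 221 counts of Y-linked genes, with the 221 in female Day 0 mouse 1. Many calls rest on single libraries. Values without them, or the number of removals that kept a call, stand beside many of the genes named. They are not given for all, as with Abcc2 at male Day 3 and Abcc4 at male Day 5. Male Day 5 mice 2, 3 and 4 were not left out together, as 1 mouse would remain, so every male Day 5 result rests on them. This is bulk RNA, so that fewer cells of a type and less RNA per cell cannot be told apart.

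Abcb1a and Abcb1b are tandem copies on chromosome 5 (GRCm38, plus strand), from 8660077 to 8748575 and from 8798147 to 8866315, with 49.6 kb between them. In the GENCODE annotation of that build, the main coding transcript of each has 28 exons and 3828 coding bases. The longest identical run of their coding sequences is 338 bases in exons 13 and 14, and 5.82% of all stretches of 150 bases, the read length of the study, occur in both. Reads from such stretches can be split between the copies or left uncounted, so that the separate levels of the pair are uncertain to that extent. The 150 bases around the exon junction of that run are shown, since a read from here fits both genes, with the bases of exon 14 in capitals. In Abcb1a they cover chr5:8702498-8702572 and chr5:8702793-8702867, and in Abcb1b chr5:8824818-8824892 and chr5:8825113-8825187.
Abcb1a and Abcb1b: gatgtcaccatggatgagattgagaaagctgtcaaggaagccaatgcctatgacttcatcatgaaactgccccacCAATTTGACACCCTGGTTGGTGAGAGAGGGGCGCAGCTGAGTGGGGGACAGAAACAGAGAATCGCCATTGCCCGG

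The bases before the start sites of the pair differ. RefSeq promoter windows on GRCm38.p6 were at hand for 6 of the 8 genes, 9 windows in all, and the 250 bases before the start were searched on both strands. The letters searched were TATAAA for the TATA box, CCAAT for the box of that name and GGGCGG for the GC box. For AP-1 they were TGANTCA and for the core of the antioxidant response element TGACNNNGC. The hexamer of nuclear receptors was AGGTCA and the E-box CACGTG, and the p53 decamer was searched by its consensus. The windows of both copies are shown because the median ratio of their levels was higher in females after cisplatin, with matches in capitals, none of which overlap. Abcb1a covers chr5:8566841-8567090 and Abcb1b chr5:8797897-8798146, both on the plus strand. The RefSeq start of Abcb1a lies 92986 bases before the gene start of the deposited table, and that of Abcb1b is the same as in the table.
Abcb1a: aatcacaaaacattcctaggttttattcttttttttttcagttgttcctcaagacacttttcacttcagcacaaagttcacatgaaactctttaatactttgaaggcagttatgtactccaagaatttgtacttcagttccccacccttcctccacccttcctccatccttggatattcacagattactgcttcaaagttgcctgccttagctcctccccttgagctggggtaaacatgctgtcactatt
Abcb1b: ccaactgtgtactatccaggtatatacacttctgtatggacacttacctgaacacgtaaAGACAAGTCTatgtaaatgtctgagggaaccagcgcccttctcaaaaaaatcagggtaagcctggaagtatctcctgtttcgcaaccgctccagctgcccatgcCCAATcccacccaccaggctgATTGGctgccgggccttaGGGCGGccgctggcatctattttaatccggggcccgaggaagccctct
The Abcb1a window held none of these letters, and no window at the Abcb1a gene start of the deposited table was searched. The Abcb1b window held a p53 decamer 191 bases before the start, CCAAT boxes 87 and 66 bases before it and a GC box 48 bases before it. The Abcc2 window also held a p53 decamer, 41 bases before its start, and 2 CCAAT boxes. Over 32851 windows of the same length, 7.13% held a p53 decamer, 33.8% a CCAAT box and 32.7% a GC box. The antioxidant core was found before Abcc2 and at both windows of Abcc4, and in 10.2% of all windows. AGGTCA was found before Abcc2 and at 2 of 3 Abcg2 windows, against 14.0% of all windows. Matches of letters are a description and not evidence of a bound factor.

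Before injection, Abcg2, an apical pump of the proximal tubule, had the highest mean level per length in both sexes. In FPKM, Abcg2 stood at 41.2 ± 5.38 (SD, n = 4) in males and 31.9 ± 2.25 in females, followed by Abcc2, another apical pump, at 19.2 ± 5.23 and 15.7 ± 16.6. The female place of Abcc2 rests on mouse 4. Without that mouse Abcc2 was at 7.50 ± 2.65 FPKM (SD, n = 3), below Abcc3 at 11.2 ± 1.43 and Abcc4 at 10.9 ± 3.51. Abcc4 came next at 4.18 ± 1.06 FPKM in males and 11.7 ± 3.34 in females. In males, Abca1 was at 1.772 ± 0.9998, Abcc1 at 0.733 ± 0.151, Abcc3 at 0.525 ± 0.313, Abcb1b at 0.510 ± 0.260 and Abcb1a at 0.448 ± 0.330 FPKM. The ranges of one SD around the last 4 means overlapped, and that of Abca1 overlapped those of Abcc1, Abcc3 and Abcb1a. In females, Abcc3 was at 8.97 ± 4.63, Abca1 at 2.39 ± 1.36, Abcb1b at 1.42 ± 0.551, Abcb1a at 1.07 ± 0.784 and Abcc1 at 0.798 ± 0.225 FPKM. Abcc4 and Abcc3 overlapped in the females, as did Abcb1b, Abcb1a and Abcc1, and Abca1 overlapped Abcb1b and Abcb1a. The wide female range of Abcc2 overlapped that of every other gene.

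**Figure D1:**
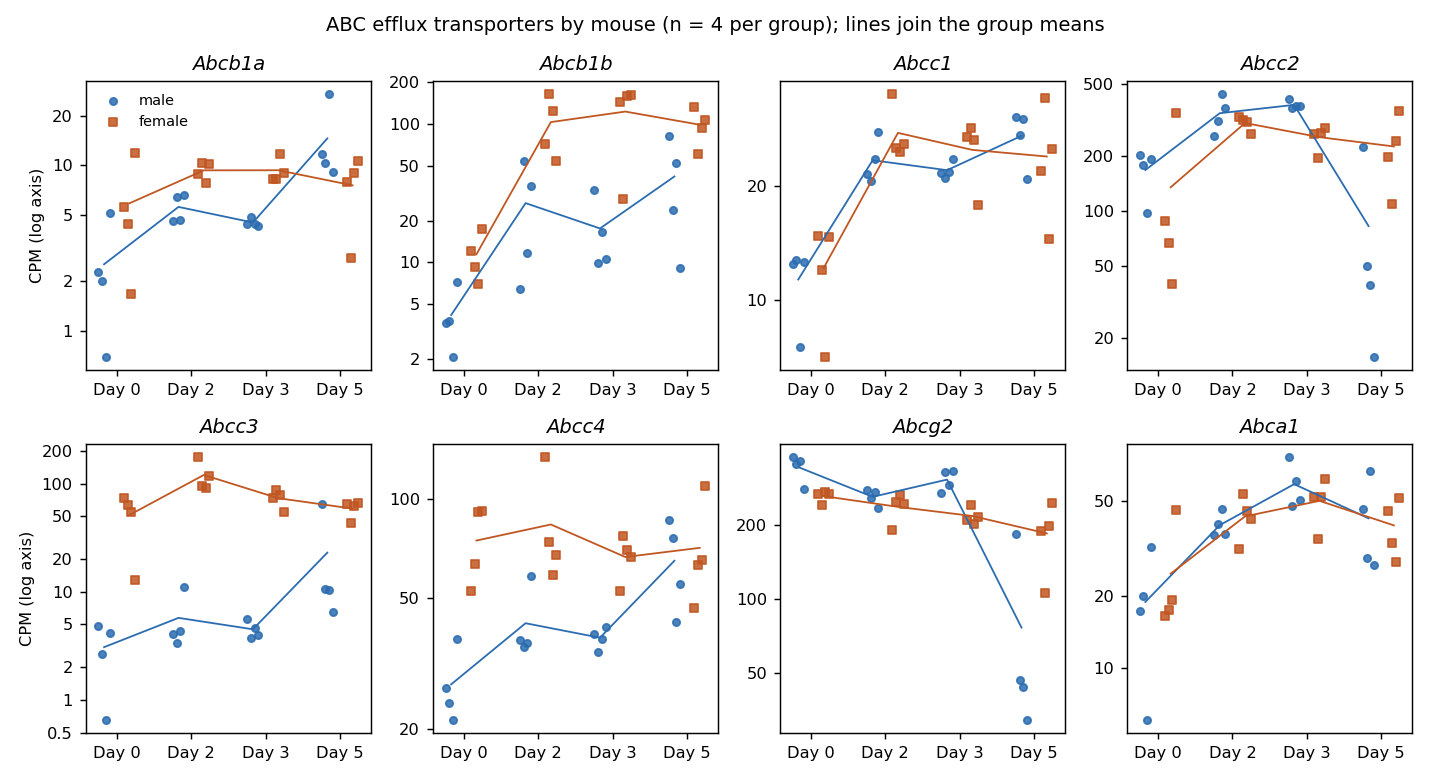
CPM of each gene (log axis) by day in male (circles) and female (squares) mice, 4 mice per group, with lines through the group means. Abcb1b and Abcc3 had the widest ranges of group means, 29.3-fold and 39.2-fold, and Abcc1 the narrowest at 2.42-fold, while male Abcg2 and Abcc2 reached their lowest means at Day 5.

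Abcb1b had the widest range over days. In females it stood at 12.0, 9.35, 7.01 and 17.5 CPM at Day 0, and at 71.0, 163, 123 and 54.1 CPM at Day 2. At Day 3 the female values were 143, 28.8, 158 and 160 CPM, and at Day 5 they were 133, 60.6, 93.5 and 107 CPM. Every treated female was above every female at Day 0. The log2 fold change against Day 0 was 3.16 (SE 0.41), 3.40 (SE 0.54) and 3.09 (SE 0.34) at the 3 days. In males, Abcb1b was at 3.64, 3.80, 2.08 and 7.19 CPM at Day 0 and at 6.47, 53.6, 11.7 and 35.5 CPM at Day 2, where mouse 1 lay within the Day 0 range. The male values were 33.3, 9.84, 16.6 and 10.6 CPM at Day 3 and 81.8, 23.9, 51.9 and 9.13 CPM at Day 5, all above Day 0. The male log2 fold changes were 2.70 (SE 0.67), 2.08 (SE 0.49) and 3.40 (SE 0.64). Male means were below female means on each day, and the groups of the sexes were apart at Day 2 but overlapped at Day 0, Day 3 and Day 5. At Day 5 the overlap came from male mouse 1 alone, at 81.8 CPM, whose Xist count went against its label. Male Day 5 mice 2, 3 and 4 were all below the lowest female of that day, at 60.6 CPM. Female Day 3 mouse 2, at 28.8 CPM, was the treated female with the lowest level, and without it the female Day 3 value was 3.73.

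The female values of Abcb1a were 5.58, 4.43, 1.67 and 11.9 CPM at Day 0, 8.92, 10.4, 7.85 and 10.1 CPM at Day 2 and 8.28, 8.28, 11.8 and 9.01 CPM at Day 3. In females no day passed the test, with log2 fold changes of 0.65 (SE 0.47, adjusted p = 0.391), 0.64 (SE 0.49, adjusted p = 0.380) and 0.35 (SE 0.55, adjusted p = 0.772). Male Abcb1a was at 2.28, 2.00, 0.693 and 5.12 CPM at Day 0 and at 11.8, 10.4, 26.9 and 9.13 CPM at Day 5. It rose by Day 5 with a log2 fold change of 2.61 (SE 0.58, adjusted p = 0.0177), and the groups did not overlap. This call passed in 6 of 7 alternative settings of the fit. Leaving out male Day 0 mouse 1, male Day 0 mouse 2 or male Day 5 mouse 3 lost the call (adjusted p = 0.0549, 0.0572 and 0.0586). The counts behind these values are low, between 19 and 89 reads at male Day 0 and between 65 and 210 at male Day 5. Per length, the median ratio of Abcb1b to Abcb1a was 1.46 in females at Day 0 and 8.08, 10.5 and 9.30 at Day 2, Day 3 and Day 5. In males, the median ratio was 1.20, 2.68, 2.13 and 1.45 in the same order.

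**Figure D2:**
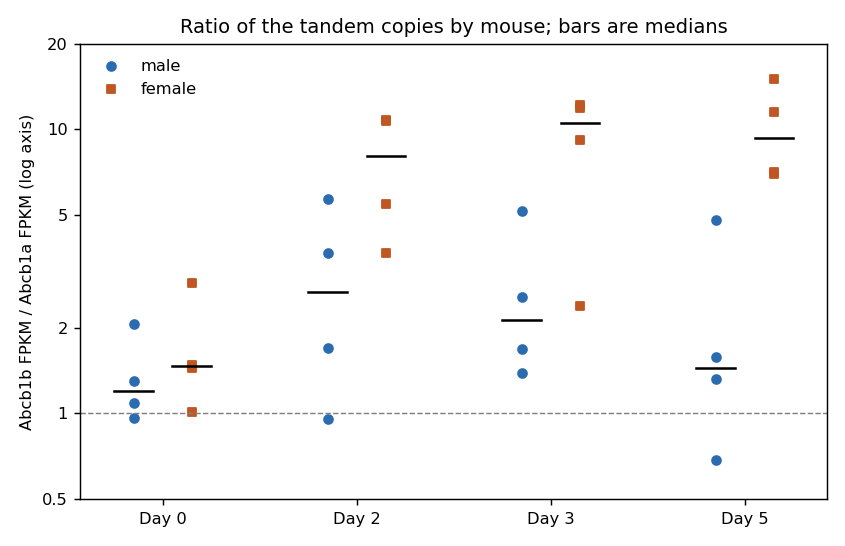
Ratio of Abcb1b to Abcb1a in FPKM (log axis) for each mouse by day and sex, with bars at the group medians and a dashed line at equal levels. The female medians were 1.46 at Day 0 and 8.08 to 10.5 afterwards, and the male medians stayed between 1.20 and 2.68.

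Among male mice, 1 of the 6 tested genes passed the test at Day 2, 3 passed at Day 3 and 4 passed at Day 5. At Day 2 the 1 gene was higher than at Day 0, where 1.81% of all genes tested were called higher and 1.35% lower. At Day 3 all 3 were higher, beside 11.4% of all genes called higher and 13.1% lower. At Day 5, 3 were higher and 1 lower, beside 8.98% and 10.2% of all genes. The median log2 fold change of the 6 genes was 1.05, 0.90 and 1.28 at the 3 days. Among female mice none of the 6 genes passed at any day. In the female comparisons 0.774% of all genes were called higher and 1.16% lower at Day 2, 1.26% and 4.28% at Day 3, and 0.185% and 0.0738% at Day 5. At an unadjusted p under 0.05, edgeR gave 2, 2 and 1 of the 6 in females, beside 25.3%, 30.7% and 15.7% of all genes, and 6, 4 and 5 in males, beside 29%, 40.5% and 36.1%. The female medians were 0.72, 0.77 and 0.51. A change that passed in males and not in females is not thereby shown to differ between the sexes, and the difference was tested separately.

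**Figure D3:**
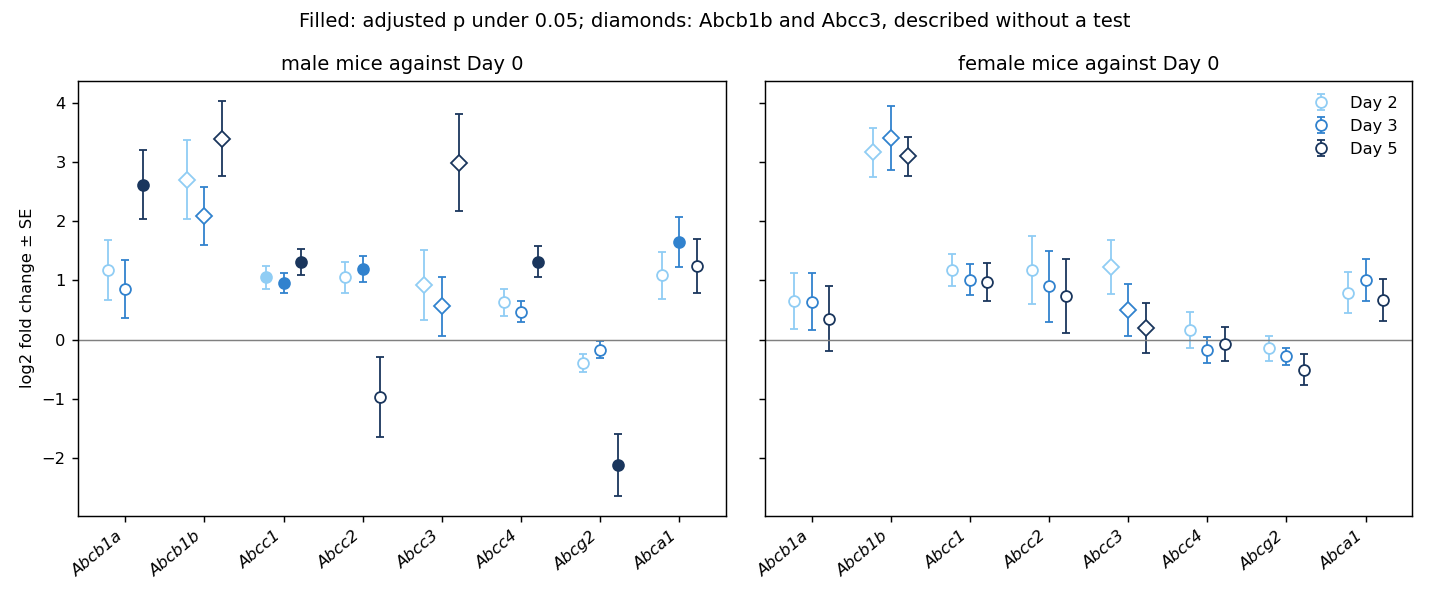
Log2 fold change against Day 0 with its standard error for each gene at Day 2, Day 3 and Day 5 in male and female mice. Filled circles passed the test at an adjusted p under 0.05, open circles did not, and diamonds mark Abcb1b and Abcc3, which were not tested. In males, Abcc1 is filled at all 3 days and Abcg2 is filled at -2.11 at Day 5.

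Abcc1, a basolateral exporter of glutathione conjugates, was the gene that passed at each day in males. It stood at 12.5, 12.8, 7.55 and 12.6 CPM at Day 0, at 21.5, 20.6, 23.5 and 27.7 CPM at Day 2, at 21.7, 21.0, 21.8 and 23.5 CPM at Day 3 and at 30.3, 27.2, 29.8 and 20.8 CPM at Day 5. No treated male overlapped Day 0. The log2 fold change was 1.05 (SE 0.20, adjusted p = 0.0387), 0.96 (SE 0.17, adjusted p = 0.0107) and 1.32 (SE 0.22, adjusted p = 0.00898). The Day 2 call was lost on leaving out any 1 male except mice 3 and 4 of Day 0, with adjusted p of 0.0771 to 0.135, while the other days kept it in 8 of 8. With mouse number as a replicate block, male Abcc1 did not pass at Day 2 or Day 3 (adjusted p = 0.0985 and 0.0576). In females, Abcc1 was at 14.8, 12.0, 7.10 and 14.7 CPM at Day 0 and at 34.7, 25.1, 24.5 and 25.8 CPM at Day 2. At Day 3 the female values were 26.8, 28.4, 26.3 and 17.8 CPM, and the groups did not overlap on either day. The female log2 fold changes at Day 2 and Day 3 were 1.17 (SE 0.27) and 1.01 (SE 0.26), each with an adjusted p of 0.0511, just above the threshold of 0.05. At Day 5 the female values were 21.8, 34.1, 14.5 and 25.0 CPM, which overlap Day 0 (0.97, SE 0.32, adjusted p = 0.215). The difference between the sexes in the change was -0.15 (SE 0.34), -0.09 (SE 0.32) and 0.33 (SE 0.39) at the 3 days. Male Day 0 mouse 3 and female Day 0 mouse 3 had the lowest Abcc1 of all libraries.

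Abca1, the lipid exporter, rose in males at Day 3. The male values were 17.3, 20.1, 6.06 and 32.2 CPM at Day 0 and 76.6, 47.8, 60.4 and 50.6 CPM at Day 3, with no overlap and a log2 fold change of 1.65 (SE 0.42, adjusted p = 0.0278). This call too was lost on leaving out any 1 male except mice 3 and 4 of Day 0, with adjusted p of 0.0591 to 0.0794. It was also lost with mouse number as a replicate block (adjusted p = 0.0655). At Day 2 the males were at 36.0, 39.9, 46.2 and 36.4 CPM (1.09, SE 0.40, adjusted p = 0.117), and at Day 5 at 46.5, 29.0, 66.7 and 27.1 CPM (1.24, SE 0.46, adjusted p = 0.0850). In females, Abca1 was at 16.5, 17.5, 19.3 and 45.9 CPM at Day 0, with mouse 4 at the level of treated mice, and at 51.9, 34.6, 52.2 and 61.7 CPM at Day 3 (0.9997, SE 0.35, adjusted p = 0.0997).

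Summed levels of tissue and cell type markers also differed from Day 0 at Day 2 and Day 3. In males the median summed FPKM went from 640 at Day 0 to 38.8 at Day 2 and 5.29 at Day 3 for erythroid markers, from 433 to 278 and 206 for adipocyte markers and from 92.2 to 65.7 and 49.8 for macrophage markers. In females it went from 1360 to 22.6 and 10.2, from 1033 to 417 and 393, and from 126 to 56.5 and 64.5 in the same order. Endothelial medians went from 140 to 180 and 173 in males and from 154 to 130 and 128 in females, and neutrophil medians from 2.03 to 1.26 and 4.26 in males and from 2.29 to 1.34 and 6.30 in females. Proximal tubule medians went from 1709 to 1404 and 1534 in males and from 1409 to 957 and 684 in females. Kidney medians went from 38660 to 17840 and 18460 in males and from 28060 to 5068 and 4455 in females. Hepatocyte medians went from 859 to 470 and 540 in males and from 312 to 115 and 163 in females. The part of all these markers in the values of the transporters on these days was not tested.

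Abcc2, the apical exporter of conjugated anions, was higher at Day 3 in males and had a wide spread at Day 5. In males it stood at 203, 179, 97.0 and 193 CPM at Day 0 and at 260, 314, 440 and 368 CPM at Day 2 (1.05, SE 0.26, adjusted p = 0.0571, no overlap). At Day 3 the values were 411, 368, 381 and 377 CPM, and the log2 fold change was 1.19 (SE 0.22, adjusted p = 0.0111). It did not pass in 1 fit over all 8 groups (adjusted p = 0.125) or with mouse number as a replicate block (adjusted p = 0.0576). At male Day 5 mouse 1 was at 226 CPM and mice 2, 3 and 4 were at 49.6, 39.3 and 15.7 CPM (-0.97, SE 0.68, adjusted p = 0.328). Without mouse 1 the value was -2.19 (SE 0.42, adjusted p = 0.00624). In females, Abcc2 was at 88.0, 66.6 and 39.4 CPM in mice 1, 2 and 3 at Day 0 and at 347 CPM in mouse 4. The female values were 328, 317, 310 and 266 CPM at Day 2, 267, 196, 270 and 288 CPM at Day 3 and 199, 110, 242 and 357 CPM at Day 5. Mouse 4 at Day 0 was thus above every treated female apart from 1 at Day 5, and the female log2 fold changes of 1.17 (SE 0.57), 0.90 (SE 0.60) and 0.74 (SE 0.63) did not pass the test.

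Abcg2, the apical urate and drug exporter, fell in males at Day 5. It stood at 377, 354, 361 and 279 CPM at Day 0, at 275, 257, 272 and 234 CPM at Day 2 and at 270, 327, 291 and 332 CPM at Day 3. At Day 5 mouse 1 was at 183 CPM and mice 2, 3 and 4 were at 46.8, 44.0 and 32.3 CPM. The log2 fold change at Day 5 was -2.11 (SE 0.52, adjusted p = 0.0246), with no overlap. It was -2.99 (SE 0.25, adjusted p = 0.000401) without mouse 1, and leaving out mouse 1 or 2 of Day 0 or mouse 2, 3 or 4 of Day 5 lost the call (adjusted p = 0.0601 to 0.0792). At Day 2 the male groups did not overlap either (-0.39, SE 0.15), but the test was not passed (adjusted p = 0.136). In females, Abcg2 was at 266, 241, 272 and 267 CPM at Day 0 and at 189, 106, 198 and 245 CPM at Day 5 (-0.51, SE 0.26, adjusted p = 0.376).

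Markers of the proximal tubule, where both apical pumps reside, were low in the Day 5 males with low Abcg2 and Abcc2. The summed FPKM of 8 proximal tubule markers lay between 1669 and 1810 at male Day 0, and was 782 in male Day 5 mouse 1 and 182, 96.4 and 79.7 in mice 2, 3 and 4. In females the sum lay between 1258 and 2138 at Day 0 and between 440 and 1331 at Day 5. None of the 8 markers was at 0 counts in any library, and 2 of 8 were lower in males at Day 5, beside 10.2% of all genes. Their part in the male Day 5 values of Abcg2 and Abcc2 was not tested. The summed FPKM of 6 neutrophil markers was 14.7, 355, 144 and 59.7 in male Day 5 mice 1 to 4, against 1.51 to 2.94 at male Day 0. The neutrophil markers Ly6g and Camp were too low to read, at no more than 6 and 8 counts in any library. The summed FPKM of 6 adipocyte markers was 620, 3628, 2626 and 1874 in male Day 5 mice 1 to 4, against 296 to 1636 at male Day 0. That of 8 endothelial markers was 122, 231, 207 and 425, against 133 to 145, and that of 6 erythroid markers 271 to 7241, against 549 to 2807. At male Day 5, 3 of 3 neutrophil, 0 of 6 adipocyte, 3 of 8 endothelial and 1 of 6 erythroid markers tested were higher, beside 8.98% of all genes. The part of these markers in the male Day 5 values of the transporters, the higher Abcb1a, Abcc1 and Abcc4 included, was not tested.

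**Figure D4:**
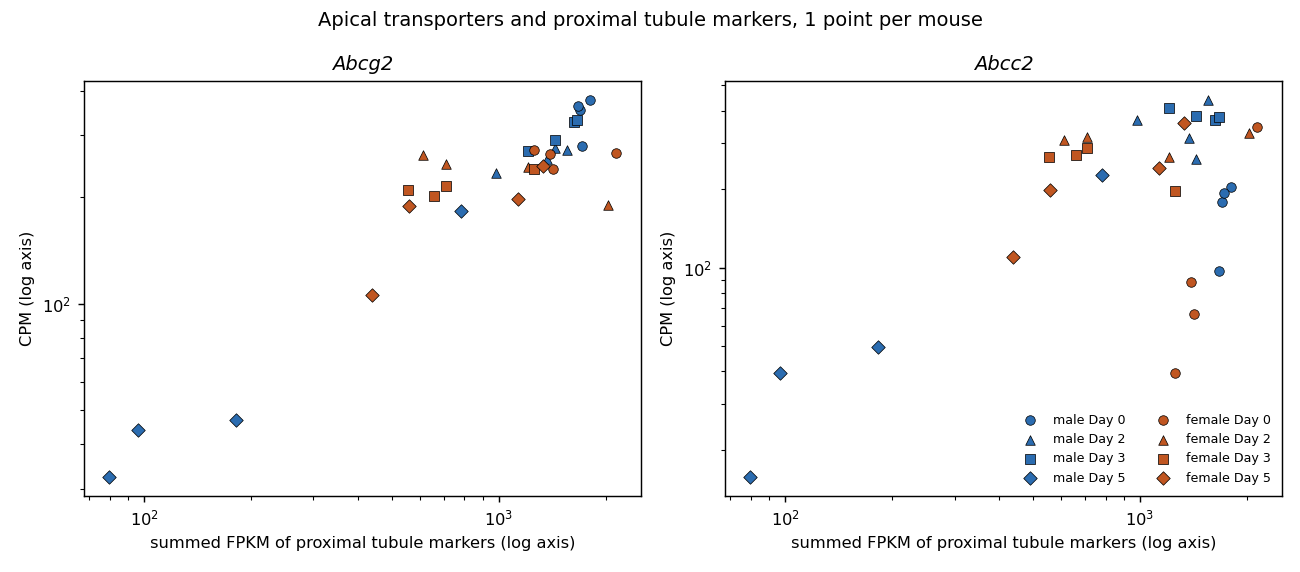
CPM of Abcg2 and Abcc2 (log axis) against the summed FPKM of 8 proximal tubule markers (log axis), 1 point per mouse, with colour for sex and shape for day. Male Day 5 mice 2, 3 and 4 lie at the lower left of both panels, at 32.3 to 46.8 CPM of Abcg2.

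Abcc4, an apical exporter of cyclic nucleotides and urate, rose in males at Day 5. Its male values were 26.5, 23.9, 21.3 and 37.5 CPM at Day 0, 37.4, 35.4, 36.6 and 58.3 CPM at Day 2, 38.9, 34.3, 37.5 and 40.8 CPM at Day 3 and 86.3, 76.4, 42.2 and 55.0 CPM at Day 5. The log2 fold change at Day 5 was 1.32 (SE 0.26, adjusted p = 0.0134), with no overlap. In females it was at 52.7, 63.4, 91.5 and 91.9 CPM at Day 0, and the log2 fold changes were 0.16, -0.18 and -0.07 (SE 0.31, 0.22 and 0.29).

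Abcc3, a basolateral exporter of glucuronides, had the widest difference between the sexes. In males it was at 4.88, 2.65, 0.657 and 4.14 CPM at Day 0 and in females at 74.6, 63.4, 54.9 and 13.0 CPM. At Day 2 it was at 4.10, 3.40, 4.34 and 11.2 CPM in males and at 178, 94.6, 92.4 and 118 CPM in females. At Day 3 the males were at 5.63, 3.78, 4.63 and 4.01 CPM and the females at 73.9, 87.2, 78.1 and 55.3 CPM. No male overlapped a female on these 3 days, and the log2 difference of males against females was -4.09 (SE 0.70), -4.41 (SE 0.40) and -4.06 (SE 0.18). At Day 5 the females were at 65.0, 43.0, 61.9 and 66.1 CPM. Male mouse 1, whose Xist count went against its label, was at 64.8 CPM and male mice 2, 3 and 4 were at 10.7, 10.3 and 6.46 CPM. The log2 difference at Day 5 was -1.28 (SE 0.63) with mouse 1 and -2.57 without it. Against Day 0, male Abcc3 at Day 5 had a log2 fold change of 2.99 (SE 0.82) with mouse 1 and 1.66 without it. Female Day 0 mouse 4 was the only Day 0 female under 50 CPM, and without it the female Day 5 log2 fold change turned from 0.20 to -0.12.

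Between the sexes, 4 of the 6 tested genes differed at Day 3. At Day 0 none passed, beside 0.237% of all genes called higher in males and 0.212% called lower. At Day 2 none passed, beside 0.891% and 0.578% of all genes. At Day 3, 2 genes were higher and 2 lower in males, beside 10.6% and 10.7% of all genes. At Day 5 none passed, beside 0.217% and 0.0591%. At Day 3 Abcb1a was lower in males at 4.42, 4.86, 4.44 and 4.32 CPM, against 8.28, 8.28, 11.8 and 9.01 CPM in females (-1.08, SE 0.14, adjusted p = 0.00109). Abcc4 was also lower in males at Day 3, against 52.6, 77.5, 70.0 and 66.8 CPM in females (-0.85, SE 0.11, adjusted p = 0.00148). Abcc2 was higher in males at Day 3 (0.56, SE 0.12, adjusted p = 0.00948), as was Abcg2, with females at 210, 241, 202 and 215 CPM (0.46, SE 0.09, adjusted p = 0.00908). None of these 4 pairs of groups overlapped, and in 1 fit over all 8 groups none of the 4 passed (adjusted p = 0.403 for Abcb1a, 0.178 for Abcc4, 0.837 for Abcc2 and 0.682 for Abcg2), beside 0.988% of all genes. At Day 3, 3 of 8 proximal tubule markers and 6 of 8 endothelial markers were also higher in males. The summed FPKM of hepatocyte markers was 509 to 618 in males and 109 to 273 in females. Adipocyte markers went the other way, at 163 to 220 in males and 295 to 535 in females. The part of these markers was not tested. At Day 0 Abcc4 showed a larger difference than at Day 3, with no overlap (-1.47, SE 0.26), but did not pass (adjusted p = 0.0537). At Day 2 neither Abcc4 (-1.01, SE 0.26, adjusted p = 0.0980) nor Abcb1a (-0.75, SE 0.18, adjusted p = 0.0792) passed, again with no overlap. Without male Day 0 mouse 4, Abcc4 passed at Day 0 (-1.66, SE 0.26, adjusted p = 0.0483), and without male Day 2 mouse 4, Abcb1a (adjusted p = 0.0484) and Abcc4 (adjusted p = 0.0424) passed at Day 2. For Abcc1 and Abca1 the log2 difference lay between -0.41 and 0.23 at every day, with SE of 0.13 to 0.50.

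The difference between males and females in the change from Day 0 was tested on its own. None of the 6 genes passed at Day 2, Day 3 or Day 5, beside 0%, 0.0114% and 0.243% of all genes. At Day 5 the male change exceeded the female change by 2.22 for Abcb1a (SE 0.86, adjusted p = 0.233) and by 1.37 for Abcc4 (SE 0.41, adjusted p = 0.135). The difference was -1.73 for Abcc2 (SE 1.02, adjusted p = 0.451) and -1.63 for Abcg2 (SE 0.60, adjusted p = 0.211).

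Many of these calls depended on the 4 libraries that stand apart, though not on these alone. Mouse 4 of both sexes at Day 0, male Day 5 mouse 1 and female Day 5 mouse 2 were left out together, a choice made after the data were seen and from mitochondrial share and Xist, not from the 8 genes. For Day 2 and Day 3 this leaves out mouse 4 of Day 0 alone. Male Day 0 mouse 3 was kept, although its summed FPKM of kidney markers was 116000, against 17940 to 39630 in the other Day 0 males. Without mouse 3 alone, 14% and 38.6% of all genes were called at male Day 2 and Day 3. Without mouse 4 alone the shares were 14% and 34.7%. In males, 5 of the 6 genes were then higher at Day 2 and at Day 3 (Abcb1a, Abcc1, Abcc2, Abcc4 and Abca1), beside 6.40% and 16.1% of all genes called higher. At male Day 5, 4 were higher and 2 lower, Abcg2 at -3.07 and Abcc2, beside 14.5% and 16.4% of all genes. In females, 4 were higher at Day 2 and at Day 3 (Abcb1a, Abcc1, Abcc2 and Abca1), beside 13.4% and 18.7%, and 2 were higher at Day 5 (Abcc2 and Abca1), beside 3.42%. Without female Day 0 mouse 4, female Abcc2 at Day 2 had a log2 fold change of 2.24 (SE 0.30, adjusted p = 0.00272) and Abca1 at Day 3 one of 1.49 (SE 0.20, adjusted p = 0.00181). With the 4 libraries left out, the Day 5 males kept were those at 78.9% to 79.8% mitochondrial counts and the Day 5 females kept those at 31.6%, 22.2% and 9.30%, so that sex and mitochondrial share cannot be told apart there. Abcc2 and Abcg2 were then lower in males than in females at Day 5, beside 12.9% of all genes called higher and 14.1% lower. Their changes to Day 5 also differed between the sexes, beside 5.91% and 8.72% of all genes. Without male Day 5 mouse 1 alone, the difference between the sexes in the change of Abcg2 was -2.51 (SE 0.36, adjusted p = 0.00128), beside 6.74% of all genes called.

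**Figure D5:**
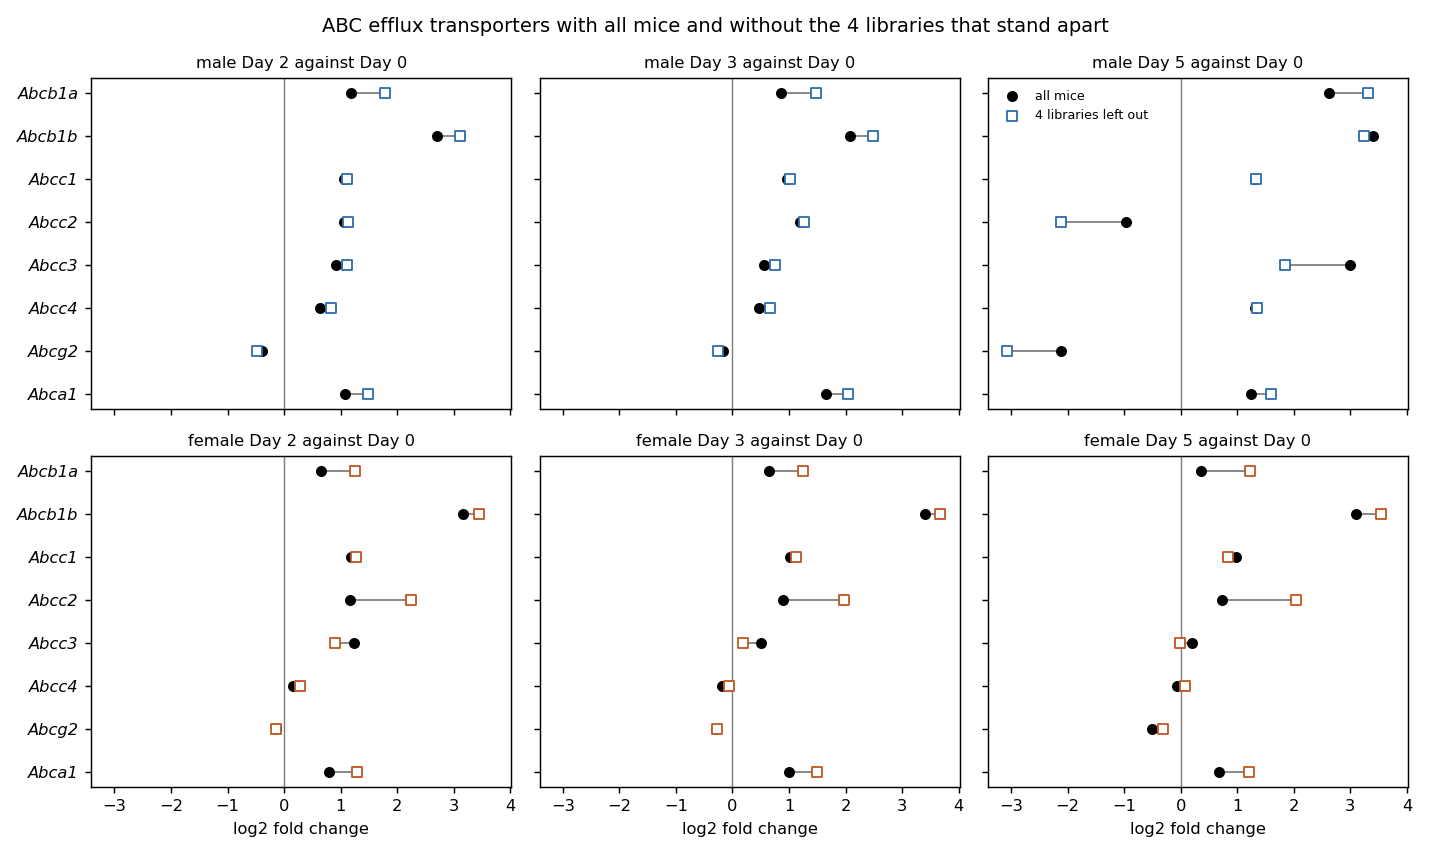
Log2 fold change against Day 0 with all mice (filled circles) and with 4 libraries left out (open squares) for each gene, day and sex. Abcc2 and Abcg2 moved to lower values in males at Day 5, Abcg2 from -2.11 to -3.07, and female Abcc2 moved up at each day.

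Genes related to the 8 transporters in function were counted from lists written with earlier results known. Of 44 other ABC genes, 30 to 35 passed the low-count filter in the comparisons of days and of sexes. In males, 5 were higher and 2 lower at Day 3, and 3 were higher and 3 lower at Day 5, with a median log2 fold change of 0.19 and 0.03. All genes were called at 11.4% higher and 13.1% lower at Day 3 and at 8.98% and 10.2% at Day 5, so that the shares of this list were near those of all genes at Day 5. Abcg1, which exports cholesterol like Abca1, rose from 6.08 to 18.2 CPM by Day 5 (1.64, SE 0.27, adjusted p = 0.00872) and also passed at Day 3 (0.94, SE 0.15, adjusted p = 0.00811). The genes that follow are named after their values were seen. Abca5, Abca8a, Abcc5 and Abcc6 were higher and Abcb8 and Abcb9 lower at Day 3, and at Day 5 Abca7 and Abcc5 were higher and Abcb8 was lower. The Abcg1 and Abca5 calls were kept in 8 of 8 removals of 1 mouse, and the others named in 2 to 6. In females 0 were higher and 1 lower at Day 3, beside 4.28% of all genes called lower, and none passed at Day 2 or Day 5. The 1 gene was again Abcb8, a mitochondrial transporter (-0.68, SE 0.16, adjusted p = 0.0480, kept in 1 of 8 removals). In males against females 2 were higher at Day 2 and 6 at Day 3, beside 0.891% and 10.6% of all genes.

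The next list held carriers of anions and cations in the proximal tubule, uptake carriers and proton exchangers among them. Not all of them serve uptake into the cell. At Day 5 in males, 11 of 18 genes of the list were lower and 0 higher, beside 10.2% and 8.98% of all genes, with a median log2 fold change of -2.15. Slco1a1, an organic anion carrier, fell by 7.09 on the log2 scale (SE 0.66, adjusted p = 0.00204), from 340.6 to 2.38 CPM. Slc17a3 and Slc17a1, organic anion transporters, fell by 3.44 and 2.90 (adjusted p = 0.00967 and 0.0227). Slc22a6 (OAT1), the basolateral anion uptake carrier, fell by 3.12 (SE 0.62, adjusted p = 0.0134). Slc22a6 and Slc22a8 of this list are also among the 8 proximal tubule markers, whose sum was low in the same mice, and the part of the markers in these changes was not tested. At Day 2 the list held 1 gene higher and 0 lower in either sex, beside 1.81% of all genes called higher in males and 0.774% in females. At Day 3 it held 2 higher and 1 lower in males, beside 11.4% and 13.1%, and 1 higher and 1 lower in females, beside 1.26% and 4.28%. The male Day 5 calls of Slco1a1, Slc17a3 and Slc22a6 were kept in 8 of 8 removals of 1 mouse and that of Slc17a1 in 3. Males exceeded females in 3 genes at Day 2 and 8 at Day 3, beside 0.891% and 10.6% of all genes, among them Slco4c1 (1.90, SE 0.36, adjusted p = 0.0316, kept in 1 of 8 removals, and 1.71, SE 0.21, adjusted p = 0.00113, kept in 8) and Slco1a1, which was at 184 CPM in males and 0.0590 CPM in females at Day 3.

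A list of genes of glutathione synthesis and breakdown, of conjugation and of antioxidant enzymes was counted next. Not all of them make glutathione or conjugates carried by the MRP proteins. In females, of 23 tested, 5 were higher and 1 lower at Day 2, 4 were higher at Day 3 and 1 at Day 5. The shares of all genes were 0.774% higher and 1.16% lower at Day 2, and 1.26% and 0.185% higher at Day 3 and Day 5. Gclc, which makes the first step of glutathione synthesis, rose from 113 to 382 CPM at Day 2 (1.75, SE 0.29, adjusted p = 0.0221) and to 377 CPM at Day 3 (1.73, SE 0.24, adjusted p = 0.0465). These calls were kept in 4 and 2 of 8 removals of 1 mouse. Nqo1, a quinone reductase, rose at Day 2 (1.57, SE 0.25, adjusted p = 0.0193) and Day 5 (1.67, SE 0.27, adjusted p = 0.0376), kept in 3 and 2 of 8 removals. Srxn1 and Txnrd1, named after their values were seen, also passed in females at Day 2 and Day 3. The Srxn1 calls were kept in 2 and 2 of 8 removals and those of Txnrd1 in 1 and 2. The glutathione transferase Gsta1 rose at Day 2 and Day 3 from 1.42 to 11.6 and 6.34 CPM, kept in 5 and 2 of 8 removals, a gene with close copies among which reads may be split. In males none passed at Day 2, and 3 were lower at Day 3, beside 13.1% of all genes. At male Day 5, 4 of 22 were higher and 5 lower, beside 8.98% and 10.2% of all genes, among them Gsta1 (3.12, SE 0.59, adjusted p = 0.0122), the sulfotransferase Sult1a1 (2.00, SE 0.39, adjusted p = 0.0134), Ggt1, which breaks glutathione down (-2.18, SE 0.47, adjusted p = 0.0160), and Gss, which makes it (-1.82, SE 0.37, adjusted p = 0.0141). The calls of Gsta1 and Sult1a1 were kept in 8 of 8 removals and those of Ggt1 and Gss in 7. Males were below females for Gsta4 at Day 0 (-2.33), Day 2 (-2.10) and Day 3 (-2.52), with adjusted p of 0.0330, 0.0225 and 3.72e-06, kept in 1, 3 and 8 of 8 removals. The glucuronosyl transferases Ugt1a2 and Ugt2b34 were lower in males at Day 2 (-5.60 and -2.19) and Day 3 (-5.01 and -2.08), in 8 of 8 removals each, and Ugt1a genes share exons, so that their reads are uncertain.

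Of 20 nuclear receptors and stress factors known to act on ABC genes, 19 were tested. Ppard, a fatty acid receptor, fell in males at each day, by 2.23, 2.45 and 1.95 on the log2 scale (adjusted p = 0.00389, 0.000580 and 0.00381), each kept in 8 of 8 removals of 1 mouse. It also fell in females at Day 3 (-0.75, SE 0.16, adjusted p = 0.0467), kept in 2 of 8. Its change to Day 3 differed between the sexes (-1.73, SE 0.22, adjusted p = 0.0123), which was kept in 12 of 16 removals and lost when mouse 1 of the Day 0 males, or mouse 1, 3 or 4 of the Day 3 males, was removed. Ppara rose in males at Day 2 (1.78, SE 0.33, adjusted p = 0.0387) and Day 3 (1.72, SE 0.34, adjusted p = 0.0132), kept in 2 and 7 of 8. The farnesoid X receptor gene Nr1h4 fell at male Day 5 (-1.84, SE 0.46, adjusted p = 0.0253, kept in 3 of 8), when 4 of 19 were lower and 0 higher, beside 10.2% and 8.98% of all genes. In females, 1 of 19 was higher at Day 2, and 1 was higher and 3 lower at Day 3, beside 0.774% of all genes called higher at Day 2 and 1.26% higher and 4.28% lower at Day 3. The gene higher at both days was Nfe2l2, which encodes Nrf2 (0.93, SE 0.21, adjusted p = 0.0499, and 1.06, SE 0.22, adjusted p = 0.0465), named here after its values were seen and kept in 1 and 2 of 8 removals. It was also higher in males at Day 3 (0.56, SE 0.15, adjusted p = 0.0293, kept in 4). Esr1, the oestrogen receptor gene, was higher in males than in females at Day 3 (1.83, SE 0.27, adjusted p = 0.00275, kept in 8). Of 10 further target genes of the liver X receptors, which act on Abca1, 2 were higher and 3 lower in males at Day 3 and at Day 5, and none passed in females. The shares of all genes in males were 11.4% higher and 13.1% lower at Day 3 and 8.98% and 10.2% at Day 5. Scd1, a fatty acid desaturase, fell in males at Day 3 (-3.10, SE 0.62, adjusted p = 0.0142, kept in 5 of 8) and Smpdl3a at Day 5 (-2.13, SE 0.38, adjusted p = 0.0108, kept in 8). None of 6 genes of the apical scaffold, which holds such pumps in the brush border, passed in any of the 13 comparisons, in which the share of all genes called ran from 0% at the sex difference in the change to Day 2 to 11.4% higher and 13.1% lower at male Day 3.

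For each of the 8 genes, the protein-coding genes with the nearest pattern over the 32 libraries were taken as those with the smallest root mean square difference of centred log2 CPM. The points share libraries and group effects, so the measure is a description. Abcg2 was nearest to Pter (0.192), Rhobtb1 (0.271) and Pdzd3 (0.273), where the median protein-coding gene lay at 0.975. Abcc2 was nearest to Dglucy (0.439), B3galt5 (0.476) and the carnitine carrier Slc22a5 (0.490), and Abcc1 to Shroom3 (0.214), Dnmbp (0.230) and Lama5 (0.236). For Abcb1b they were Mab21l3 (0.802), the cell cycle inhibitor Cdkn1a (0.822) and Sec14l5 (0.828), against a median of 1.87. Cdkn1a had group means of 13.2 CPM at female Day 0 and 263, 245 and 192 CPM at the later days. Abcc3 was nearest to the carbonyl reductase Cbr1 (0.870), Slc7a12 (0.904) and Myh1, with a median of 2.17. Cbr1 had a mean of 50.1 CPM in males and 340 CPM in females at Day 0. Abcb1a was nearest to Shisa3 (0.496), Spsb1 (0.536) and Kif3c (0.555), Abcc4 to Gpat3 (0.409), Asrgl1 (0.410) and Prr5l (0.411), and Abca1 to Peg3 (0.331), Ercc6 (0.335) and Micall1 (0.336). Without the Day 5 libraries, Pter ranked 87 for Abcg2 and Dglucy 149 for Abcc2, whereas Shroom3 stayed at 1 for Abcc1 and Mab21l3 at 1 for Abcb1b.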

How the data were processed

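Kidney RNA of 32 mice was sequenced as paired reads of 150 bases. The authors deposited raw counts per gene, and a table of FPKM, which the authors scaled to gene length and library size. The processing notes name HTSeq and DESeq2 with no version, and GRCm39 (mm39), whereas the methods name GRCm38, which the coordinates of the table match. Whether reads were counted by strand is not given in the sources used here.

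The counts were tested with edgeR 4.0.16 (limma 3.58.1, R 4.3.3) by quasi-likelihood after TMM scaling and its filter on low counts. Each comparison was fitted on its own groups, with Benjamini-Hochberg adjustment over all genes passing the filter, and a gene passed at an adjusted p under 0.05. The Day 0 mice are shared by the 3 day comparisons of a sex, which are thus not independent. Each library is 1 mouse. CPM used TMM factors over the 32 libraries. The fits were tested on simulated data.

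The members and lists were chosen with earlier results of these data known. Named genes were the 8 members, up to 4 genes per list and comparison with an absolute log2 fold change over 1.5, an adjusted p under 0.05 and groups that did not overlap, and the 3 nearest patterns of each member whose group means spanned at least 1 on the log2 scale.

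Alternatives were DESeq2 size factors, the DESeq2 1.42.0 Wald test, no filter, a fold threshold, 1 fit over all 8 groups, mouse number as a replicate block, removal of mitochondrial genes and removal of single mice. A fit without 4 libraries was added, chosen after seeing the data. Promoter windows came from RefSeq and coding sequences from GENCODE, both on GRCm38.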

Additional observations from a re-analysis of the deposited data

Results flagged for a closer look

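In 11 of 64 groups of 4 mice, 1 mouse lay far from the other 3 by Dixon's test at the 95% level. Chance gives about 1 in 20 groups, and genes of 1 library are not independent. Of the Day 5 males, the library labelled male Day 5 mouse 1 was set apart for 3 genes. It held 225.9 CPM of Abcc2 against 15.72 to 49.62 in the others, 64.84 CPM of Abcc3 against 6.458 to 10.7, and 182.7 CPM of Abcg2 against 32.29 to 46.79. The same library had Xist counts against its label and a mitochondrial share of 42.5%, against 78.9% to 79.8% in the others, and the part of these values was not tested.

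Female Day 0 mouse 4 was set apart for 2 genes, with 346.5 CPM of Abcc2 against 39.44 to 88.02 and 45.94 CPM of Abca1 against 16.48 to 19.3. Its mitochondrial share was 19.7%, whose part was not tested. Male Day 2 mouse 4 held 11.18 CPM of Abcc3 against 3.399 to 4.338, and 58.28 CPM of Abcc4 against 35.44 to 37.37.

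The other 4 were single genes. Abcb1a was at 26.92 CPM in male Day 5 mouse 3 against 9.125 to 11.75, and Abcb1b was at 28.82 CPM in female Day 3 mouse 2 against 143.3 to 160. Abcc1 was at 7.554 CPM in male Day 0 mouse 3 against 12.48 to 12.75, and at 34.74 CPM in female Day 2 mouse 1 against 24.45 to 25.77.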

How the results depend on the processing

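The number of the 6 tested genes past the test depended on the settings. With DESeq2's Wald test it was 4 at male Day 2 (1 with edgeR), 1 and 2 at female Day 2 and Day 3 (0), 1 and 2 between the sexes at Day 0 and Day 2 (0), and 1 for the sex difference in the change to Day 5 (0). That test called 18.3% of all genes at male Day 2, 12.9% and 21.2% at female Day 2 and Day 3, 2.71% and 5.12% between the sexes at Day 0 and Day 2, and 4.05% for the change. Without the filter on low counts it was 1 at female Day 2, at female Day 3 and between the sexes at Day 0 and Day 2, beside 3.41%, 3.23%, 0.311% and 1.25% of all genes. In 1 fit over all 8 groups it was 2 at male Day 2, 1, 2 and 1 at female Day 2, Day 3 and Day 5, 1 between the sexes at Day 0, 0 at Day 3 (4) and 1 at Day 5, and 3 for the change to Day 5. That fit called 12.9% of all genes at male Day 2, 21.8%, 23.4% and 10.9% at the 3 female days, 3.22%, 0.988% and 9.69% between the sexes at Day 0, Day 3 and Day 5 and 7.55% for the change. With an absolute log2 fold change over 1.5 it was 0, 1 and 2 in males at the 3 days (1, 3 and 4) and 0 between the sexes at Day 3, beside 0.716%, 3.72%, 7.53% and 1.93% of all genes. With 4 libraries left out it was 5 at male Day 2 and Day 3, 4, 4 and 2 at the 3 female days, and 2 between the sexes at Day 5 and for the change to Day 5.

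Leaving out 1 mouse at a time, the count ran from 0 to 5, 2 to 5 and 2 to 5 in males at the 3 days, and from 0 to 4, 0 to 4 and 0 to 2 in females. Between the sexes it ran from 0 to 1 at Day 0, 0 to 2 at Day 2, 4 to 5 at Day 3 and 0 to 2 at Day 5. For the sex difference in the change it was 0 at Day 2 and Day 3 and 0 to 1 at Day 5. The share of all genes called moved with these counts, from 0.079% to 14.0%, 4.18% to 38.6% and 5.38% to 26% in males and from 0.125% to 28.3%, 0% to 39.1% and 0.0483% to 12.6% in females. Between the sexes it ran up to 0.495%, 3.35%, 34.6% and 17.0% on the 4 days. At female Day 3, 0 or 1 gene of all was called in 6 of the 8 removals. The Abcc3 change at female Day 5 (0.20) ran from -0.12, without mouse 4 of Day 0, to 0.43, without mouse 1 of Day 0, and was -0.012 without the 4 libraries.

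With mouse number as a replicate block, the count was 0 at male Day 2 and Day 3 and 1 between the sexes at Day 0, beside 0.0312%, 0.566% and 1.31% of all genes. Mice of the same number are different animals, and their deviations correlated between -0.415 and 0.481, so the numbers were not taken as a pairing. Low counts limit Abcb1a, at 19 to 524 reads per library, and male Abcc3, which had as few as 18.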
